A study of Sus scrofa with 17 samples.

Results

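Of the 17 porcine kidneys whose RNA was sequenced after machine perfusion, 5 kidneys with few detected genes, more than 500 below 20000, were set against 7 kidneys with many, more than 500 above 20000. A gene was detected in a kidney when at least 1 read was counted on it. The kidneys were chosen by these measured numbers of detected genes, read from the same counts that give every expression value below. The side with few detected genes (the low side) held G2 kidneys 1, 3 and 6 and G3 kidneys 2 and 6. The side with many (the high side) held G1 kidneys 1, 2 and 5, G2 kidneys 2 and 5 and G3 kidneys 1 and 5. The 5 kidneys between these limits were left out of the comparison and are given where they place it. Differences in expression between the sides are therefore a description and carry no test. The tests in this comparison concern the treatment and the sample code, which the labels give, and the depth of the libraries.

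In the kidney much of the messenger RNA comes from the proximal tubule, whose cells reabsorb filtered solutes and burn fatty acids in densely packed mitochondria, so mitochondrial messages take a large share of all reads. A sequencing library is a fixed budget of reads. When a few abundant messages take more of it, fewer reads remain for rare ones, and the number of genes seen at least once also depends on low, scattered transcription of genes that a tissue hardly uses. Pre-mRNA is cut and joined by the spliceosome, and splice site choice is set by SR proteins, which are rich in arginine and serine, by the CLK kinases that phosphorylate them, and by cyclins L. Many genes of this machinery are known to keep some of their introns in RNA that stays in the nucleus.

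The kidneys came from female, wild type Dutch Landrace farm pigs of 6 months to 1 year, with 1 kidney used per animal. All had 32 min of warm ischemia, 24 h of hypothermic machine perfusion (HMP) and 5 h of normothermic machine perfusion (NMP), after which tissue was snap frozen. Kidneys of G1 (n = 5) received the vehicle PBS in both perfusions, those of G2 (n = 6) extracellular vesicles of porcine urine progenitor cells (pUPC-EVs) in HMP alone, and those of G3 (n = 6) the vesicles in HMP and again in NMP. There was no kidney without perfusion, and the labels give a common lower bound on RNA integrity but no value per kidney. The tissue label was checked on marker genes: all 17 proximal tubule markers had a mean of at least 1 CPM (counts scaled to a common library size), and summed to between 18153 and 34159 CPM in the 12 compared kidneys, whereas 5 adrenal cortex markers summed to at most 0.69 CPM.

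The low side ran from 18813 to 19452 detected genes and the high side from 20506 to 21049. G2 kidney 6 had 18813 detected genes, G2 kidney 3 had 18926, G3 kidney 6 had 18968, G3 kidney 2 had 19378 and G2 kidney 1 had 19452. On the high side the lowest number was 20506 (G3 kidney 5), the median 20722 and the highest 21049 (G3 kidney 1). The means were 19107 ± 288 (SD, n = 5) and 20768 ± 174 (SD, n = 7), or 71.9% and 78.2% of the 26560 genes listed. Just outside the limits lay G3 kidney 4 with 19882 genes and G3 kidney 3 with 20450, against 19452 and 20506 just inside. The gap at the lower limit was wide and that at the upper limit narrow, so G3 kidney 5 entered the high side by few genes.

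**Figure D1:**
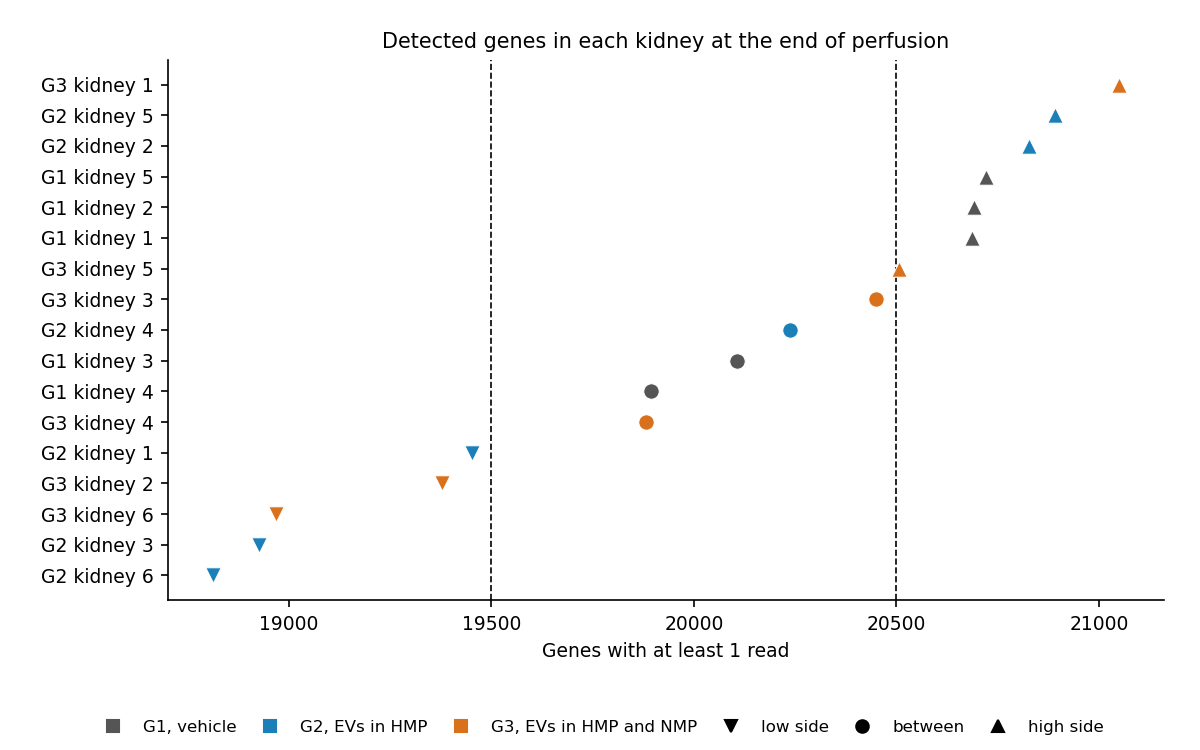
Number of genes with at least 1 read (horizontal axis) in each of the 17 kidneys, ordered by that number and coloured by treatment group, with dashed lines 500 genes below and above 20000. The 5 kidneys of the low side end at 19452 genes, the 5 between them lie from 19882 to 20450, and the 7 of the high side start at 20506.

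Depth did not separate the sides. The low side had a mean of 22319251 counts per kidney (from 21168698 to 23792594) and the high side 21403850 (from 19270046 to 24448161). Over all 17 kidneys, detected genes and total counts had Pearson's r = -0.10 (permutation test, two-sided, p = 0.70) and Spearman's rho = -0.12 (permutation test, p = 0.645). Without the 2 kidneys farthest from the median total, G3 kidney 1 and G3 kidney 3, r was -0.48, so the value near 0 rested on these kidneys. Thinning every kidney to the smallest total of 19270046 counts left 18885 ± 284.05 genes (SD, n = 5) on the low side and 20596 ± 93.3 (SD, n = 7) on the high side, a gap of 1711 genes against 1660 before thinning. With at least 10 reads asked for a detected gene, the means were 14540 ± 145 and 15461 ± 117. The gap was thus smaller for better covered genes, and the values of the sides still did not overlap.

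No G1 kidney fell on the low side. It held 0 of 5 G1, 3 of 6 G2 and 2 of 6 G3 kidneys, the high side 3, 2 and 2, and the kidneys between 2, 1 and 2. The mix of treatments was not shown to differ between the low and high sides (Freeman-Halton exact test, two-sided, p = 0.356). Nor was that of the code series (exact test, p = 0.369), the 3 runs of consecutive sample codes whose meaning is not stated: series A, B and C gave 1, 1 and 3 kidneys to the low side and 4, 0 and 3 to the high side. A p of this size does not show that the mixes were alike, since each side is small.

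Detected genes were also compared between the treatment groups over all kidneys. G1 kidneys had 20686, 20692, 20107, 19893 and 20722 detected genes (kidneys 1 to 5). G2 kidneys ran from 18813 over a median of 19845 to 20891, and G3 kidneys from 18968 over 20166 to 21049. The groups overlapped, and the range of G1 was the narrowest. G2 was lower than G1 by a mean of 562 genes (two-sided exact permutation test, p = 0.223, adjusted p = 0.536), with 3 of 6 G2 kidneys below every G1 kidney. G3 kidneys 2, 4 and 6 (19378, 19882 and 18968 genes) also lay below every G1 kidney. G3 differed from G1 by -381 genes (exact permutation test, p = 0.357, adjusted p = 0.536) and from G2 by 181 genes (exact permutation test, p = 0.716, adjusted p = 0.716). Within code series C, G3 differed from G2 by 234.5 genes (4 kidneys each, exact permutation test, p = 0.771). The differences of G2 and G3 from G1 there were -1005 and -770.5 genes, where G1 has a single kidney and the exact permutation test cannot go below p = 0.20.

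The genes seen in addition on the high side were those with very few reads. Genes with a mean of 0.01 to 0.1 CPM over the 17 kidneys made up 62.2% of the gap, with 1489 ± 154 detected on the low side and 2521 ± 122 on the high side. Genes at 0.1 to 1 CPM made up 25.9% (3723 ± 114 against 4154 ± 29.9) and those under 0.01 CPM 11.6%. Above 1 CPM nearly every gene was detected on both sides. Genes without a symbol made up 82.4% of the gap, with 5202 detected on the low side and 6570 on the high side. They are 11467 of the 26560 genes listed, but most genes at these low levels lack a symbol. Of the genes under 0.01 CPM 10.7% have a symbol, of those at 0.01 to 0.1 CPM 20.4% and of those at 0.1 to 1 CPM 43.3%. In all 17 kidneys 15845 genes were detected.

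A total of 33 genes had reads in all 7 kidneys of the high side and in no kidney of the low side, and 0 genes showed the opposite pattern. Their counts were small, with a mean per high-side kidney of at most 11.14 reads and a median of these means of 3.14. Only 7 of the 33 have a symbol. CATSPER4, a calcium channel subunit of sperm, had a mean of 11.14 reads on the high side and at least 7 reads in each of its kidneys. GARIN2, a testis gene, had a mean of 5.57 reads, MUC6, a secreted gastric mucin, 4.71, DNAI2, a dynein chain of motile cilia, 3.14, and SYCP2, a protein of meiotic chromosomes, 3.00. LMOD2, which elongates actin filaments in heart muscle, had 2.86 reads and NPY2R, a neuropeptide Y receptor, 1.86. These genes are best known from germ cells, ciliated cells, muscle, stomach and neurons, and each was chosen here by its pattern of detection. Marker lists drawn up before these values were seen overlapped between the sides. Germ cell markers summed to 0.97 to 2.09 CPM on the low side and 0.80 to 1.98 CPM on the high side. Neuron markers summed to 3.63 to 7.44 against 3.48 to 6.03 CPM, and skeletal muscle markers to 0.44 to 1.90 against 0.85 to 2.43 CPM.

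A larger share of the counts of the low side went to few genes. The 100 genes with the most counts took 36.6% (G2 kidney 6), 35.5% (G2 kidney 3), 39.3% (G3 kidney 6), 34.7% (G3 kidney 2) and 31.3% (G2 kidney 1) of all counts on the low side. On the high side they took from 27.99% over a median of 29.1% to 34.5%. All low-side kidneys lay above 6 of the 7 high-side kidneys, and the exception was G3 kidney 1, at 34.5%. The means were 35.5 ± 2.89% (SD, n = 5) and 29.8 ± 2.16% (SD, n = 7), a difference of 5.64 percentage points. It was 6.41 points without G3 kidney 1, 5.46 points without the G1 kidneys and 8.44 points within code series C (3 kidneys on each side). With the 13 protein genes of the mitochondrial genome left out it was 2.77 points. The 10 highest genes took 19.2 ± 2.95% against 14.7 ± 2.48%, and the 1000 highest 64.2 ± 2.11% against 59.1 ± 1.28%. To reach 50% of the counts took a mean of 392 genes on the low side and 576 on the high side.

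G3 kidney 1, with the most detected genes of all, stood apart on the high side. Its 10 highest genes took 20.01% of its counts, where the other 6 high-side kidneys ran from 12.7% to 15.1%, and 17.8% of its counts lay on the 13 protein genes of the mitochondrial genome, where the others ran from 9.57% to 11.8%. On the low side these 13 genes took 17.7%, 14.4%, 20.03%, 15.6% and 12.9% of the counts, in the order of detected genes used above. The means of 16.1 ± 2.81% and 11.8 ± 2.71% differed, but the sides overlapped through G3 kidney 1. With the 13 genes left out, the 100 highest remaining genes took 22.4% to 25.9% of the remaining counts on the low side and 21.0% to 22.3% on the high side, without overlap. Many detected genes and a high mitochondrial share therefore occurred together in this kidney.

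**Figure D2:**
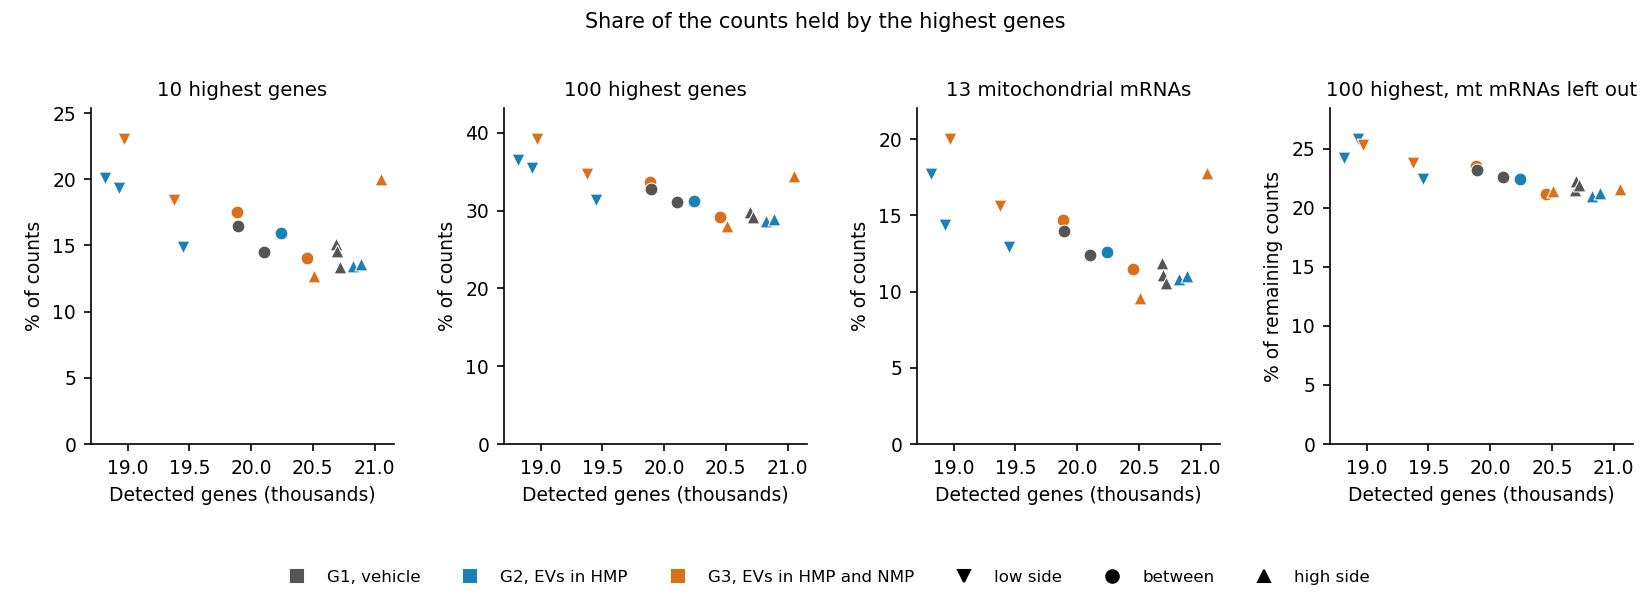
Percent of the counts (vertical axes, from 0) held by the 10 and the 100 highest genes, by the 13 mitochondrially encoded protein genes, and by the 100 highest genes once these 13 were left out, against the number of detected genes, 1 point per kidney. G3 kidney 1, the rightmost point, lies with the low side in the first 3 panels (20.01%, 34.5% and 17.8%) and with the high side in the last.

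The genes with the largest shares of counts, which are not levels per length, included COX1, GPX3, COX3, ATP6, COX2, CYTB, ND4, FTL and ND5. From here on, levels are CPM after TMM scaling, and differences are low side minus high side of mean log2 CPM. COX1, a core subunit of cytochrome c oxidase on the mitochondrial genome (MT, 6511 to 8055), was at 63300.1, 55799, 82558, 59098 and 44202 CPM on the low side, again in the order G2 kidney 6, G2 kidney 3, G3 kidney 6, G3 kidney 2 and G2 kidney 1. On the high side it ran from 28588 over a median of 32142 to 56821 CPM. The highest value of the high side, again from G3 kidney 1, lay inside the low-side range, and the difference was 0.78. All 13 mitochondrial genes were higher on the low side, by 0.53 (ND4) to 2.19 (ATP8), with a median of 0.77, and for 0 of 13 did the sides not overlap (5.64% of all genes tested were higher and 7.83% lower without overlap). ATP8 and ATP6 overlap each other on the genome, as do ND4L and ND4, so their reads may have been split between them.

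GPX3 and FTL, the nuclear genes among these, were also higher on the low side. GPX3, the glutathione peroxidase that the proximal tubule secretes into plasma (chr16:71980467-71989011), was at 32779, 47169.6, 40565, 31976 and 19366 CPM on the low side. On the high side it ran from 18659.8 over 24524 to 27798 CPM, which G2 kidney 1 overlapped, and the difference was 0.47. FTL, the light chain of the iron store ferritin, differed by 0.55 (7855 ± 1503 CPM, n = 5, against 5332 ± 711 CPM, n = 7). For both of these genes G2 kidney 1 was the lowest of the low side and lay inside the range of the high side.

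Across the 13723 genes with a mean of at least 1 CPM, nearly all large differences pointed downward on the low side. A gene was called when all 5 low-side kidneys lay on one side of all 7 high-side kidneys and the means differed at least 2-fold. By this rule 523 genes (3.81%) were lower and 7 (0.051%) higher on the low side. Without the 2-fold limit, the sides did not overlap for 1074 genes lower (7.83%) and 774 genes higher (5.64%), and with library size in place of TMM scaling for 1959 lower and 22 higher. This balance turned from a mean of 10 CPM up (601 lower, 732 higher) and within code series C (2643 lower, 3220 higher). Since the kidneys were chosen by the same counts, these shares describe the sides and support nothing further. The median difference over the 13723 genes was 0.08, and library size alone moved it by -0.27, so differences are best read relative to the median of their scale.

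Of the 523 genes 512 had reads in all 17 kidneys, as had 13681 of the 13723 genes tested, which the limit of 1 CPM keeps apart from the rarely detected genes. Their median level was 4.80 CPM, against 19.8 CPM over all genes tested, and 67.5% had a symbol, against 86.1%. Their differences ran to -4.46, with a median of -1.55. Without the G1 kidneys 609 genes were lower and 25 higher (515 of the 523 among them), and within code series C 837 were lower and 106 higher (497 of the 523 among them). The share of the 523 genes that stood nearer to the high-side mean than to the low-side mean was 98.7% to 100% in the high-side kidneys and 0.38% to 7.84% in the low-side kidneys, which chose them. In the kidneys between, which did not, it was 44.6% (G3 kidney 4, 19882 detected genes), 34.2% (G1 kidney 4, 19893), 62.9% (G1 kidney 3, 20107), 75.9% (G2 kidney 4, 20238) and 91.2% (G3 kidney 3, 20450). The kidneys left out thus lay between the sides, in nearly the order of their detected genes, and a G1 kidney was nearest to the low side.

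**Figure D3:**
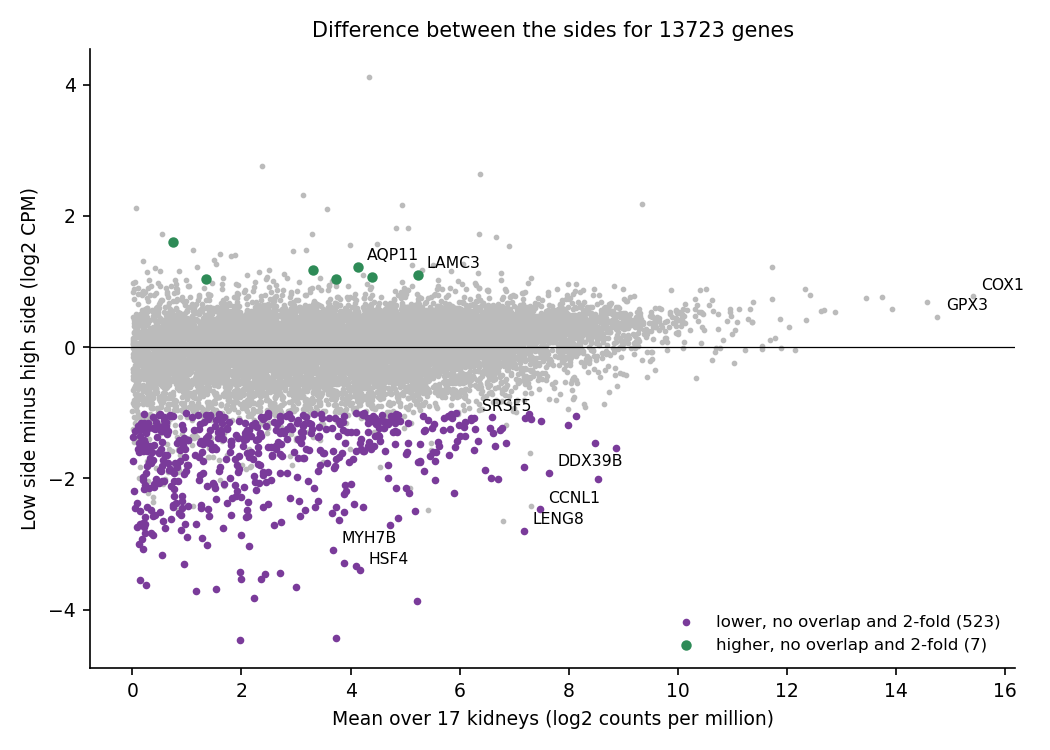
Low side minus high side of mean log2 CPM (vertical axis) against the mean level over the 17 kidneys (horizontal axis, log2 CPM) for the 13723 genes, with called genes in colour. The 523 called lower reach -4.46, while the 7 called higher reach 1.60 and the 85 genes of over 1000 CPM have a median of 0.47.

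Several genes of splicing were among those called lower, and 3 lists of splicing genes were drawn up after this was seen. In the list of CLK kinases, cyclins L and LUC7-like proteins, which help U1 snRNP find the 5′ splice site, the sides did not overlap for 9 of 9 genes, all lower on the low side, and 5 were called, where 7.83% of all genes tested were lower without overlap and 3.81% were called lower. The median was -1.35 against 0.08 over all genes, and since the list was chosen after its values were seen, its counts support nothing further. The list summed to 250.4 to 319 CPM in the low-side kidneys and 695 to 926 CPM in the high-side kidneys. CCNL1 (cyclin L1, ENSSSCG00000029352, chr13:96984542-97004401) was at 40.5, 36.2, 29.8, 60.1 and 53.0 CPM on the low side. On the high side it ran from 172 over 232 to 349.6 CPM, a mean 5.52-fold above the low side. No low-side kidney came near the high side, and the kidneys between ran from 126 to 339 CPM.

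CLK1, the kinase that phosphorylates SR proteins (ENSSSCG00000016095, chr15:104553512-104562348), was at 36.3, 36.1, 38.6, 45.0 and 38.7 CPM on the low side and ran from 93.3 over 106 to 117 CPM on the high side, a difference of -1.43. The spread within each side was small beside the gap, and the kidneys between ran from 58.2 to 115 CPM. CCNL2, its companion cyclin, was at 35.6 ± 7.46 CPM (SD, n = 5) against 140.2 ± 16.8 (SD, n = 7), and LUC7L3 at 35.8 ± 6.11 against 91.2 ± 11.6 CPM. Within G2 and within G3, CCNL1 differed between the sides by -2.55 and -2.70 and CLK1 by -1.50 and -1.40. These directions follow from the call, which asked that the sides not overlap.

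Of 11 SR protein genes, 10 were lower on the low side, 7 of them without overlap, and 3 were called (SRSF5, SRSF7 and SRSF11), with a median of -0.69. Over all genes tested 42.4% were lower, 7.83% without overlap, and 3.81% were called lower, and this list too was chosen after its values were seen. SRSF11 (ENSSSCG00000003791, chr6:142621904-142668107) was at 42.6, 38.4, 43.6, 58.0 and 52.8 CPM on the low side and from 117 over 135 to 156 CPM on the high side, 2.85-fold higher. SRSF9 was at 53.5 CPM in both means, and SRSF3 differed by -0.14. The SR protein genes thus differed widely among themselves.

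The components of the spliceosome itself went both ways. Of 23 genes 10 were lower and 13 higher on the low side, with a median of 0.06. The list still summed to less on the low side (1350 to 1589 CPM) than on the high side (1756 to 1892 CPM), without overlap. The sides did not overlap for 7 genes lower and 1 higher (7.83% and 5.64% over all genes tested), and 5 were called lower (3.81% over all genes): PRPF39, PRPF40B, SNRNP70, DDX39B and RNPC3. DDX39B, an RNA helicase of spliceosome assembly and mRNA export (ENSSSCG00000001400, chr7:23658089-23669095), was at 66.1, 52.2, 68.1, 96.7 and 109 CPM on the low side and from 258 over 283 to 325.7 CPM on the high side, a difference of -1.91. PRPF39, a U1 snRNP factor, was at 8.39, 7.83, 7.59, 14.7 and 14.9 CPM against 40.3 over 47.7 to 58.0 CPM, and RNPC3, a protein of the minor spliceosome, at 2.76, 2.75, 4.18, 6.23 and 4.68 CPM against 20.5 over 21.7 to 26.8 CPM. Neither gene overlapped between the sides. PRPF8, the largest core protein, was at 243 against 212 CPM, and SF3B3, of the U2 snRNP, at 127 against 112 CPM. Of 9 genes of nonsense-mediated decay, which degrades messages with early stop codons, UPF1 and UPF3B did not overlap (-0.45 and -0.64), 0 were called and the median was 0.01.

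**Figure D4:**
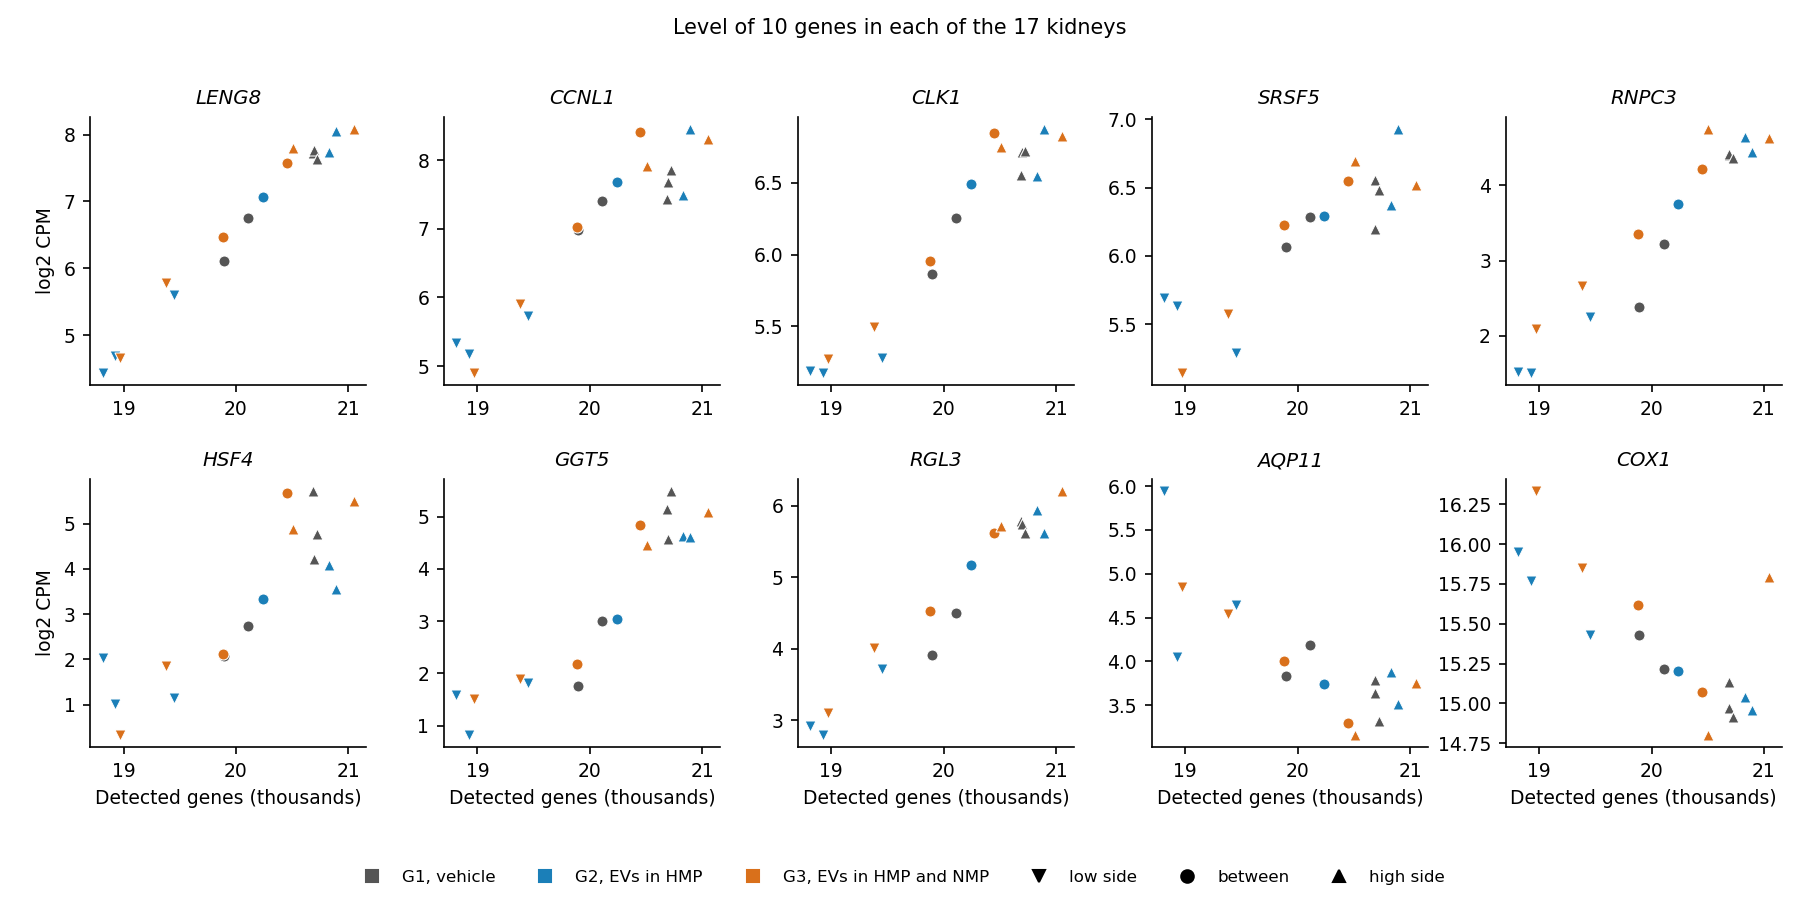
Level (vertical axes, log2 CPM, each on its own scale) of 10 genes in each of the 17 kidneys against the number of detected genes, coloured by treatment and shaped by side. LENG8 climbs from 21.6 CPM in G2 kidney 6 to values over 199 CPM on the high side with the kidneys left out in between, whereas AQP11 and COX1 are higher on the low side.

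The 10 called genes with the largest drop, among those with a symbol and a mean of at least 10 CPM, were HSF4, GGT5, MYH7B, LENG8, LRRC45, MMP25, ATXN7L2, RNPC3, RGL3 and CCNL1, from -3.40 to -2.46. Of these, HSF4, GGT5, MYH7B, LRRC45, MMP25, ATXN7L2 and RNPC3 had low-side means under 10 CPM. They met the limit through the other kidneys, which favours large drops, so the size of their drops supports nothing further. LENG8, a nuclear protein related to mRNA export factors (ENSSSCG00000030857, chr6:58860193-58871138), was at 21.6, 25.7, 25.1, 54.8 and 48.4 CPM on the low side and from 199 over 218 to 271 CPM on the high side, 6.95-fold higher. The kidneys between were at 88.4, 69.0, 107, 134 and 190.5 CPM in the order of detected genes, and all lay in the gap. HSF4, a heat shock factor best known from the lens, was at 4.01, 1.93, 1.17, 3.50 and 2.11 CPM on the low side and from 11.8 over 27.0 to 52.5 CPM on the high side, with a difference of -3.40. G3 kidney 3, between the sides, reached 51.0 CPM, inside the high-side range, while the other 4 kidneys between lay from 4.10 to 10.1 CPM.

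GGT5, an enzyme that converts leukotriene C4 (chr14:49638184-49663007), was at 2.92, 1.68, 2.75, 3.602 and 3.44 CPM on the low side and from 21.9 over 24.9 to 44.9 CPM on the high side, 10.1-fold higher. MYH7B, a myosin heavy chain gene whose transcript in many tissues skips an exon and makes no protein (chr17:38362158-38385680), was at 2.45 ± 0.631 CPM (SD, n = 5) against 21.2 ± 4.11 CPM (SD, n = 7). RGL3, an exchange factor for Ral proteins, was at 10.4 ± 3.96 against 56.3 ± 8.71 CPM. LRRC45, a centrosome protein, was at 6.56 ± 0.602 against 44.8 ± 11.5 CPM, MMP25, a membrane-bound metalloproteinase, at 3.83 ± 2.60 against 20.7 ± 4.72 CPM, and ATXN7L2 at 3.54 ± 1.17 against 20.3 ± 3.83 CPM. Over all 10 genes the differences ran from -3.21 (GGT5) to -2.28 (ATXN7L2) within G2 and from -4.10 (HSF4) to -2.31 (RNPC3) within G3, where the direction follows from the call.

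Only 4 genes of that level with a symbol were called higher on the low side. AQP11, an aquaporin of the endoplasmic reticulum of proximal tubule cells (ENSSSCG00000014880, chr9:12065550-12076339), was at 61.4, 16.5, 28.7, 23.2 and 24.97 CPM on the low side and from 8.86 over 12.3 to 14.6 CPM on the high side, a difference of 1.23. G2 kidney 6 held the highest value by far, and G2 kidney 3 was just above the high side. LAMC3, a laminin chain of basement membranes, was at 58.9 ± 18.5 CPM (SD, n = 5) against 27.5 ± 7.37 (SD, n = 7), and HGFAC, the protease that activates hepatocyte growth factor, at 32.1 ± 10.4 against 15.1 ± 3.64 CPM. ACKR2, a scavenger receptor for inflammatory chemokines, was at 19.0 ± 5.71 against 9.004 ± 1.62 CPM, so it met the limit of 10 CPM through kidneys off the high side. In G3 kidney 6 it was at 10.905 CPM, just above the highest high-side value of 10.86 CPM.

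Many lists of ordinary kidney genes stood slightly higher on the low side, with few called genes. So did abundant genes of any kind. Over all genes the median difference was -0.06 at 1 to 10 CPM and 0.10 at 10 to 100 CPM. It was 0.24 at 100 to 1000 CPM and 0.47 over 1000 CPM, so lists of abundant genes are best read beside these values. All 17 proximal tubule genes were higher on the low side, by a median of 0.50, 4 of them without overlap (SLC34A1, SLC5A2, SLC22A8 and PDZK1) and 0 called, where 5.64% of all genes tested were higher without overlap and 0.051% were called higher. In such bulk samples, fewer cells of a type and less RNA per cell cannot be told apart. SLC22A8, the organic anion transporter OAT3, was at 2518, 2457, 2113, 2323 and 2439 CPM on the low side and from 1417 over 1636 to 1877 CPM on the high side, a difference of 0.53. PCK1, the rate-limiting enzyme of glucose synthesis, was at 3557 ± 986 against 3192 ± 729 CPM and overlapped. The thick ascending limb had a median of 0.46 (0.16 within G2, 0.44 within G3), with UMOD, the main protein of urine, at 0.73 and the salt transporter SLC12A1 at -0.18. The collecting duct had 0.34, the podocyte 0.34 and the distal convoluted tubule 0.28 (-0.12 within code series C), with 0 called genes in each of these segments. The collecting duct median fell to 0.19 without the G1 kidneys, and was 0.05 within G2 and 0.30 within G3.

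Genes of oxidative metabolism on the nuclear genome went the same way as the mitochondrial ones. All 14 nuclear genes of the respiratory chain were higher on the low side, by a median of 0.44 and 5 without overlap. Over all genes tested 42.4% were lower and 5.64% were higher without overlap. ATP5F1A, the alpha subunit of ATP synthase, was at 1038, 984, 849, 961 and 915 CPM on the low side and from 670.2 over 690.1 to 765 CPM on the high side, without overlap. Of 12 genes of fatty acid oxidation 11 were higher on the low side, with a median of 0.47. All 13 ribosomal protein genes were higher, by 0.21 to 0.50. Over all genes the median was 0.24 at 100 to 1000 CPM and 0.47 over 1000 CPM.

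Genes of the lysosome, another list that was drawn up after values had been seen, were mostly higher on the low side. Of 19 genes 18 were higher, 12 of them without overlap (5.64% over all genes tested), with a median of 0.56, which fell as low as 0.29 in other settings. Such counts depend on TMM scaling: over all genes tested 774 were higher without overlap, against 22 with library size only. Since the list was chosen after its values were seen, its counts support nothing further. The list summed to 5984 to 7763 CPM on the low side and 4106 to 5001 CPM on the high side. CTSB, the protease cathepsin B, was at 1719, 2545, 2038, 2069 and 1420.2 CPM on the low side and from 660.3 over 1016 to 1402 CPM on the high side, a difference of 0.88. LAMP1, a protein of the lysosomal membrane, was at 590.5 ± 67.6 CPM (SD, n = 5) against 426 ± 27.8 (SD, n = 7). None of the 19 reached the 2-fold limit.

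All 8 complement genes with values, in a list of the same late origin, were higher on the low side, by 0.08 to 0.94, and 3 did not overlap (5.64% of all genes tested were higher without overlap). These were C1R and C1S, the proteases of the C1 complex, and SERPING1, the inhibitor of both. SERPING1 was at 189.8, 165, 189, 159.7 and 154 CPM on the low side and from 74.7 over 102 to 121 CPM on the high side. C1S was at 112 ± 15.8 CPM (SD, n = 5) against 58.7 ± 11.06 (SD, n = 7). The difference of C1S was 0.64 in G2 and 1.25 in G3. The counts of this late list, too, support nothing further.

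**Figure D5:**
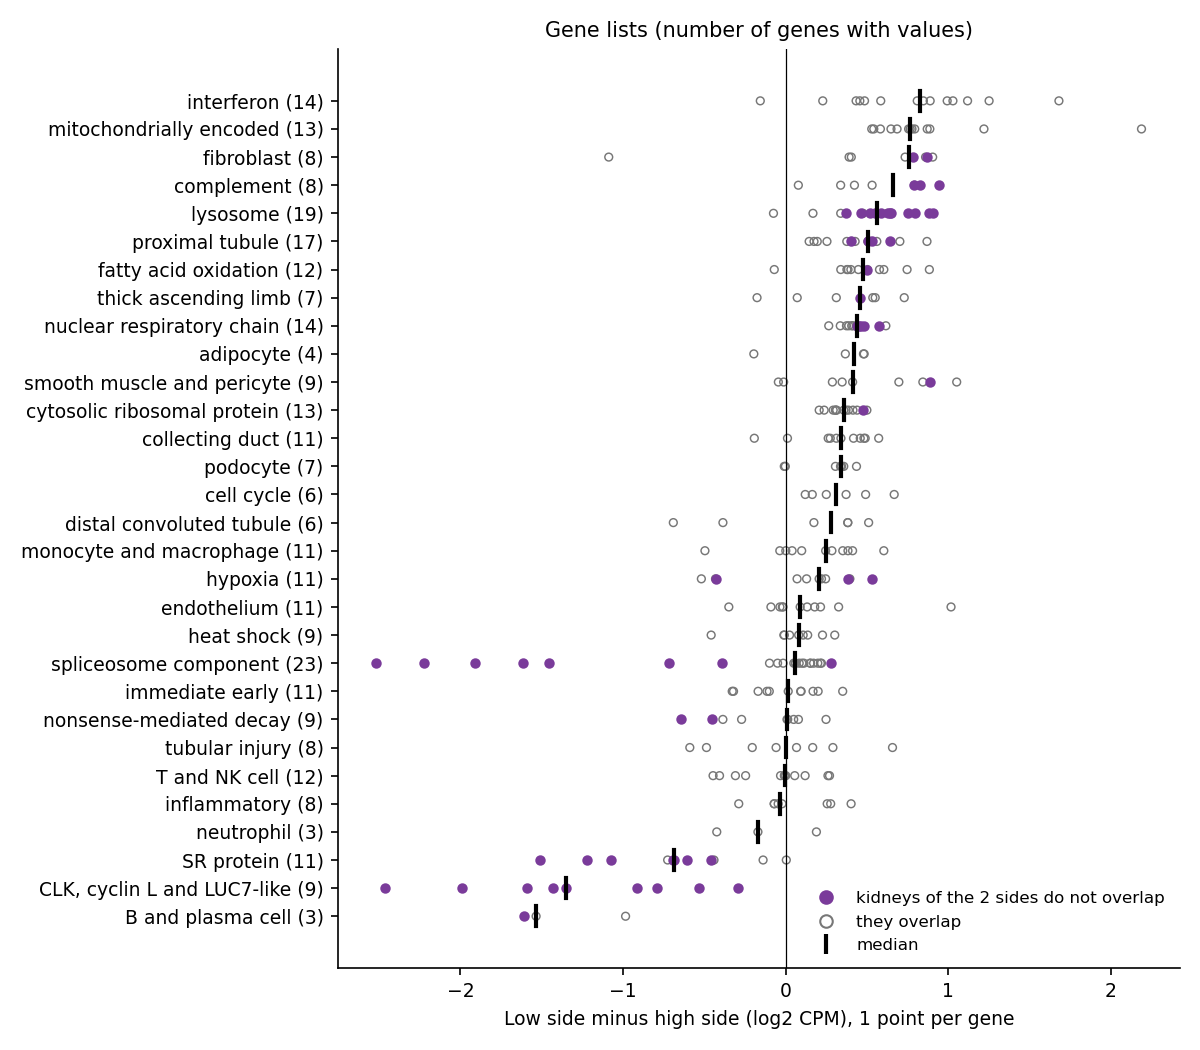
Low side minus high side of mean log2 CPM (horizontal axis) for each gene of 30 lists, 1 point per gene, filled where the 12 kidneys of the sides do not overlap, with a bar at the median and the number of genes in parentheses. The CLK, cyclin L and LUC7-like list lies lowest among those with more than 3 genes (median -1.35), and 12 of the 19 lysosomal genes are filled above 0.

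Most fibroblast genes were higher on the low side, and endothelial genes were nearly level. The fibroblast list had a median of 0.76 with DCN and FBLN1, secreted matrix proteins, without overlap (5.64% over all genes tested), and its summed level ran from 785 to 1166 CPM on the low side and from 457 to 765 CPM on the high side, while POSTN, a matrix protein of injured tissue, was lower by 1.09 on the log2 scale. DCN was at 156, 133, 156, 106 and 106 CPM on the low side and from 52.9 over 78.8 to 88.6 CPM on the high side. The endothelial list had a median of 0.09 (-0.18 with library size only), with PLVAP, a protein of fenestrated capillaries, at 1.02 and the vascular cadherin CDH5 at -0.09. Of 9 smooth muscle and pericyte genes 7 were higher, with a median of 0.41, and DES, the intermediate filament desmin, did not overlap (0.89). The part of stromal cells in the other differences was not tested.

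Markers of blood and lining cells were low, and 3 of them were called lower (3.81% over all genes tested). CD79A, a subunit of the B cell receptor, was at 0.542, 0.407, 0.866, 0.584 and 0.734 CPM on the low side and from 1.26 over 2.04 to 3.43 CPM on the high side. Of 7 B and plasma cell markers with values 3 had a mean of at least 1 CPM and all 3 were lower (median -1.53). CD79A was under 1 CPM in every low-side kidney and met that limit through the others, so this count and median support nothing further. PAX5, under the limit, was at 0.25 against 0.31 CPM (a log2 difference of 0.04). MS4A1, a B cell surface protein, was under 0.5 CPM in both means. The 7 markers summed to 10.7 to 33.8 CPM on the low side and 9.78 to 72.2 CPM on the high side. The platelet integrin ITGA2B was at 3.18 ± 1.24 CPM (SD, n = 5) against 8.83 ± 1.16 (SD, n = 7), while the other platelet markers measured were under 0.5 CPM in both means. The urothelial marker UPK3B was at 1.13 ± 0.291 against 2.66 ± 0.375 CPM, while UPK1B was at 1.48 against 1.42 and UPK2 at 0.050 against 0.033 CPM.

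Other leukocyte lists did not differ in a common direction. T and NK cell genes had a median of -0.01 and those of monocytes and macrophages 0.25 (-0.02 with library size only), each with 0 genes without overlap. Over all genes tested the sides did not overlap for 7.83% lower and 5.64% higher, which in lists of 12 and 11 genes is little different from 0. Of the 11 monocyte and macrophage genes 9 were higher and 2 lower, where 42.4% of all genes tested were lower. The median of this list was -0.23 within G2 and 0.39 within G3. Neutrophil markers summed to 5.42 to 12.9 CPM on the low side and 6.33 to 14.7 CPM on the high side. Of the red cell genes only HBB, the beta globin, reached 1 CPM, at 1.89 ± 1.49 against 1.45 ± 0.902 CPM. The part of these cells in the differences between the sides was not tested.

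Most lists of genes that perfusion and ischemia are known to induce had medians near that of all genes. Immediate early genes had a median of 0.02, heat shock genes 0.08, inflammatory genes -0.03 and tubular injury genes 0.00 (all below 0 with library size only), and in none of these 4 lists did a gene show sides without overlap. The tubular injury median was -0.27 within G2 and 0.43 within G3, so its value near 0 joined opposite directions. IL6, the cytokine of the acute phase, was at 2396, 1827, 3410.0, 3514 and 4575 CPM on the low side and from 2329.8 over 3475 to 3573 CPM on the high side. The low-side values spread to both ends of the high-side range. In the hypoxia list, with a median of 0.21 (-0.06 with library size only), the glycolytic enzymes PGK1 and ENO1 were higher without overlap (0.38 and 0.53) and CA9, a carbonic anhydrase, lower (-0.43). Over all genes tested 5.64% were higher and 7.83% lower without overlap.

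Interferon-stimulated genes were higher on the low side, but with a wide spread. Of 14 genes 13 were higher, with a median of 0.83, and for 0 of 14 did the sides not overlap. Over all genes tested 42.4% were lower, and the sides did not overlap for 7.83% lower and 5.64% higher. ISG15, the ubiquitin-like modifier, was at 575, 407, 747, 389.6 and 369.8 CPM on the low side and from 150.4 over 241 to 401 CPM on the high side. The median was 0.80 among G2 kidneys and 0.15 among G3 kidneys, and 0.58 without the G1 kidneys, which lie on the high side only. Treatment and side cannot be told apart in the part of this difference that G1 carries.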

How the data were processed

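The authors trimmed reads with cutadapt 4.0, aligned them with STAR to Sscrofa11.1, per the study's methods, and deposited a table of raw read counts for each kidney that had not been normalized. The library kit marks strand, and the counting program and its strand setting are not given in the sources used here. A second deposited table holds the authors' own comparison of G3 with G1 (mean count, fold change, its error, test value and p) and was not used.

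The kidneys, gene lists and tests were chosen with earlier results of these data known. The 6 lists of SR proteins, CLK kinases with cyclins L and LUC7-like proteins, spliceosome components, nonsense-mediated decay, lysosome and complement were added after the values of this comparison had been seen. Groups came from the labels, and every kidney is a separate animal. Total counts ran from 19270046 to 24736473. Over all 136 pairs, chi-square per degree of freedom was at least 23.0, so no pair of libraries agreed within counting noise. Symbols matched 15093 of 26560 identifiers, and coordinates are RefSeq's for Sscrofa11.1 where a symbol matched.

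Log2 CPM used TMM factors and a prior count of 2 in edgeR 4.0.16 (R 4.3.3). TMM factors ran from 0.825 to 0.983 on the low side and from 1.03 to 1.10 on the high side. Genes with a mean of at least 1 CPM were compared. Genes named are the 10 with the largest mean share of counts, the 10 called lower and up to 10 higher with the largest difference (symbol known, mean of at least 10 CPM), called or most abundant list members up to 4 a list, and markers near 0. Others named in the text, from the lists, were singled out after their values were seen. Treatment groups were compared by exact permutation tests over all splits with Benjamini-Hochberg adjustment over 3 comparisons, mixes by the Freeman-Halton exact test, and depth by 100000 permutations (Python 3.11.15, scipy 1.17.1). The scripts were tested on simulated data. Alternatives were RLE size factors, library size only, other prior counts, filters, folds and definitions of the sides, and leaving out each kidney. Expression without the G1 kidneys, within code series C, and shares without mitochondrial genes were chosen after seeing the data. Some genes that these rules name are not reported here.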

Additional observations from a re-analysis of the deposited data

Results flagged for a closer look

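A kidney that stood far from the rest of its side or treatment group was looked for in 165 sets of values with Dixon's test, which chance alone would give in about 1 set in 20, here 8.25. It found 17. Of these, 9 were G3 kidney 1 among the 7 high-side kidneys, in measures that are not independent of each other. The gap to the next kidney as a part of the whole range was 0.788 for its TMM factor (1.03, the next 1.08), 0.667 for the share of the 10 highest genes, 0.709 for that of the 100 highest and 0.6253 for that of the 1000 highest. It was 0.722 for the mitochondrial share, 0.652 for the number of genes that reach 50% of the counts (449, the next 565), 0.662 for COX1, 0.632 for COX3 and 0.585 for CYTB.

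On the high side, G1 kidney 5 was lowest in the mean of the B and plasma cell genes (0.765) and of the urothelium genes (0.703), G2 kidney 5 highest in that of the fibroblast genes (0.659), and G3 kidney 5 lowest in that of the erythroid genes (0.653). On the low side, G2 kidney 6 was highest in the mean of the podocyte genes (0.749) and in LAMC3 (0.759), G3 kidney 6 lowest in MYH7B (0.759) and G2 kidney 1 lowest in ND5 (0.819). The cause of each was not tested. For 60 lists and genes the difference between the sides was compared within G2 and within G3, and 0 had kidneys that moved without overlap in opposite directions. For the called genes among them the call, which asked that the sides not overlap, had fixed this outcome.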

How the results depend on the processing

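The count of 523 genes called lower was 538 with RLE size factors, 528 with a prior count of 0.5, 480 with sides drawn from genes with 10 or more reads and 609 without the G1 kidneys. Sides drawn from thinned counts held the same 12 kidneys and so the same calls. The count moved to 831 with library size only, 845 with no filter, 175 from a mean of 10 CPM up, 855 at a fold of 1.5, 158 with all 17 kidneys split at 20000 genes and 837 within code series C. The 7 genes called higher became 0 with library size only and with the split at 20000, 4 from 10 CPM up, 128 at a fold of 1.5, 25 without the G1 kidneys and 106 within code series C. With each kidney left out, 519 to 606 were lower (494 to 519 of the 523 among them) and 6 to 21 higher, most without G2 kidney 1 (21), G3 kidney 2 (17), G1 kidney 5 and G2 kidney 5 (15 each) and G3 kidney 6 (13). The share of the 100 highest genes kept its direction throughout, from 4.69 to 6.67 points with each kidney left out. In the other settings tried it moved from 5.64 points by less than the low-side SD of 2.89 points. The largest moves, only just under this limit, were to 2.77 points without the mitochondrial genes and to 8.44 points within code series C.

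Both mixes stayed above an exact p of 0.05 in the settings tried, with 0.576 for treatment and 0.546 for code series at the split of 20000. With each kidney left out, the difference in detected genes was -769 to -353 between G2 and G1, -583 to -167 between G3 and G1 and -28.2 to 395 between G3 and G2, where it was -21.2 without G3 kidney 1, -5.57 without G2 kidney 3 and -28.2 without G2 kidney 6 (exact permutation tests, adjusted p from 0.334 to 0.987). The correlation of detected genes with total counts ran from -0.292 to 0.036, and was 0.0363 without G3 kidney 6. The kidneys that share a number come from different animals: with the replicate block the differences were -353 (5 pairs), -167 (5 pairs) and 181 (6 pairs) genes, with exact permutation p of 0.50, 0.812 and 0.844, so no call changed. Of 16 pairs with a shared number 8 had deviations correlated over 0.1, against 27 of 80 other pairs.

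Of 480 values of the 24 named genes in other settings 467 moved by less than the spread between kidneys and 0 changed sign. For the called genes among them, the call had fixed the sign in every setting that only left kidneys out. Of 600 list medians 570 moved by less than that spread. The sign changed for 58 of these 600, in 12 lists, the most in tubular injury (12 of 20 settings), nonsense-mediated decay (10), immediate early and T and NK cell (8 each) and inflammatory and neutrophil genes (6 each), and in 1 setting for the distal convoluted tubule. With library size only, the medians of the endothelium, spliceosome component, hypoxia, heat shock, immediate early, tubular injury, nonsense-mediated decay and monocyte and macrophage lists were below 0. Causes were not tested. Depth limits genes under 0.1 CPM, which rest on few reads in a kidney, and intervals were not computed.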

Other observations

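Further genes were picked by hand from the 523 called lower on the low side after their values were seen, with no tally of genes of like function that were not called, so they are given as values alone. SRRM2, a scaffold of nuclear speckles, differed by -1.53, PNISR by -1.88, RSRP1 by -2.15 and SREK1, a regulator of SR proteins, by -1.43 (log2 CPM). RBM5 differed by -1.08, ARGLU1 by -1.02 and the splicing regulator HNRNPH1 by -1.05. NXF1, the main mRNA export receptor, differed by -1.56 and THOC1, a subunit of the export complex THO, by -1.17. OGT, the enzyme that adds O-GlcNAc to proteins, differed by -1.87 and PABPN1, the nuclear poly(A) binding protein, by -1.07.

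THBS4, SAL1 and ATP8 had large positive differences although the sides overlapped, and were also singled out after their values were seen. THBS4, a matrix protein of the thrombospondin family, was at 36.9, 72.5, 56.3, 47.2 and 1.19 CPM on the low side in the order of detected genes used above, and at 73.5 CPM in G1 kidney 2, 35.7 CPM in G2 kidney 5 and at most 0.60 CPM in the other 5 high-side kidneys. SAL1, a salivary lipocalin, was at 332, 0, 788, 0.973 and 30.8 CPM on the low side and from 0.0447 to 92.9 CPM on the high side, so that kidneys of both sides were near 0. ATP8 was at 1.68 CPM in G2 kidney 3, 0.520 CPM in G1 kidney 1, 4.76 CPM in G2 kidney 2 and 2.61 CPM in G3 kidney 5, and between 672.5 and 1212 CPM in the other 8 compared kidneys. ATP6, which overlaps it on the genome, was at 13995 CPM or more on the low side.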
